A study of Homo sapiens with 4 samples.

Results

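Claudins and their partners at the tight junction were followed in the gastric cancer cell line AGS after knockdown of MFAP2, which encodes a microfibril-associated glycoprotein of the extracellular matrix. The group held 10 genes taken by name, CLDN1, CLDN2, CLDN3, CLDN4, CLDN7, CLDN12, CLDN18, OCLN, TJP1 and F11R, and each had a row among the 47251 genes of the table. RNA was sequenced from 4 libraries. In 2 of them, the sh-MFAP2 group, the cells carried 1 shRNA against MFAP2 introduced by lentivirus, and the 2 control libraries came from cells infected with a scrambled shRNA. Both groups were AGS cells grown in DMEM with 10% FBS, and the study's methods describe puromycin selection of the infected cells, so a stably infected population stands behind each group. No label says that the 2 libraries of a group came from separate cultures, and p-values therefore measure the spread between these libraries, which may be technical.

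Tight junctions seal the space between neighbouring epithelial cells near their apical side. Claudins span the membrane and set which ions and small molecules can pass, some closing the space and others, such as claudin-2, forming pores in it. Occludin and the junctional adhesion molecule JAM-A lie beside them in the membrane, and the ZO proteins of the cytoplasmic plaque tie all of these to actin.

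Gene levels below are in FPKM, fragments scaled to length and library depth. Each gene value is divided by all exonic bases of the gene, so a gene read mainly from short transcripts is set lower. Comparisons of levels between genes carry this limit. The epithelial identity of the line was visible in EPCAM at 193 to 210 FPKM and KRT8 at 690 to 803 FPKM, whereas CDH1, the gene of E-cadherin, was at 0.584 and 0.853 FPKM with sh-MFAP2 and 1.25 and 1.15 FPKM in the control, lower in both sh-MFAP2 libraries but under the mean needed for a test. Of the 6 leukocyte and endothelial markers, none was above 0.0511 FPKM in any library, and among the 3 fibroblast markers COL1A1 alone was measurable, at 2.27 and 2.07 FPKM with sh-MFAP2 against 4.36 and 4.92 FPKM in the control. The steps between low values implied 54600000 to 74700000 reads per library. MFAP2 itself had no signal in either sh-MFAP2 library (listed at 0) and reached 0.0116 and 0.0138 FPKM in the controls, about 2 and 3 reads, so the targeted gene could not serve as a check of the labels. Sh-MFAP2 replicate 1 stood apart from the other 3 in the level of CLDN4, in the start of CLDN2 and in the forms of OCLN, and results that rest on it are given with and without it.

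The central observation was in CLDN7, the most abundant claudin in 3 of the 4 libraries, at chr17:7259903-7263983 on the minus strand of GRCh38. Its gene level was lower with sh-MFAP2, and the transcripts that carried it differed between the groups more than the level did, although no transcript passed the test after adjustment. In the control, 90.0% and 89.3% of the CLDN7 signal was assigned to the transcript CLDN7-201 (ENST00000360325). With sh-MFAP2 that share was 23.7% and 36.8%, and CLDN7-202 (ENST00000397317), whose start lies 735 bases upstream, held 41.8% and 42.3%. In the control CLDN7-202 held 3.19% and 3.98%. The stretches of DNA around these 2 starts, where transcription of each form would begin, are printed from RefSeq (GRCh38.p14, minus strand, 150 bases before the start to 20 after it, 5′ to 3′), and both starts match the annotated ones to the base. Capitals mark CACCTG on either strand, the E-box bound by Snail and ZEB family repressors of epithelial genes. A match of these letters describes the sequence and does not show that anything binds there.
CLDN7-201 start, chr17:7262459-7262628: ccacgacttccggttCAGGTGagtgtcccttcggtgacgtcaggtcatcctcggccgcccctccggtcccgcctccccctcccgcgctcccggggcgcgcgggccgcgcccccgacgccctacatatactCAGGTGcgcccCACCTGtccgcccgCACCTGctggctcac
CLDN7-202 start, chr17:7263194-7263363: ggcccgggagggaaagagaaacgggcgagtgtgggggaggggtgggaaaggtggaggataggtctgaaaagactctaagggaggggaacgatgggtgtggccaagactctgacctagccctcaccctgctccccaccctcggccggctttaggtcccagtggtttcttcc
The window of CLDN7-201 held 4 of these E-boxes, 2 GC boxes (GGGCGG on either strand), 21 CG pairs and 73.5% GC. No CACCTG and no GC box was found in the window of CLDN7-202, which had 6 CG pairs and 61.8% GC. Of 35116 RefSeq windows of the same length, 11.9% held at least 1 CACCTG, 0.0683% held 4 or more, and 38.1% held a GC box, with a median of 60% GC. The cutoff of 4 is the count in the CLDN7-201 window itself, and these windows were not matched for GC. Windows were listed for 9 of the 10 genes, 16 in all, and 5 of the 16 held a CACCTG.

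CLDN7-201 had 9.95 and 20.3 FPKM with sh-MFAP2 against 67.1 and 69.6 FPKM in the control libraries. CLDN7-202 went the other way, at 22.1 and 29.3 FPKM with sh-MFAP2 against 2.98 and 3.90 FPKM. Neither pair of groups overlapped. The log2 fold change on log2(FPKM + 1), sh-MFAP2 minus control, was -2.18 for CLDN7-201 (SE 0.385, 95% interval -3.29 to -1.08) and 2.58 for CLDN7-202 (SE 0.243, 95% interval 1.89 to 3.28). With limma over 22312 transcripts and Benjamini-Hochberg adjustment, the unadjusted p was 0.00601 and 0.000654 and the adjusted p 0.385 and 0.190, so neither passed the DEG threshold of unadjusted p under 0.01 with adjusted p under 0.05.

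**Figure D1:**
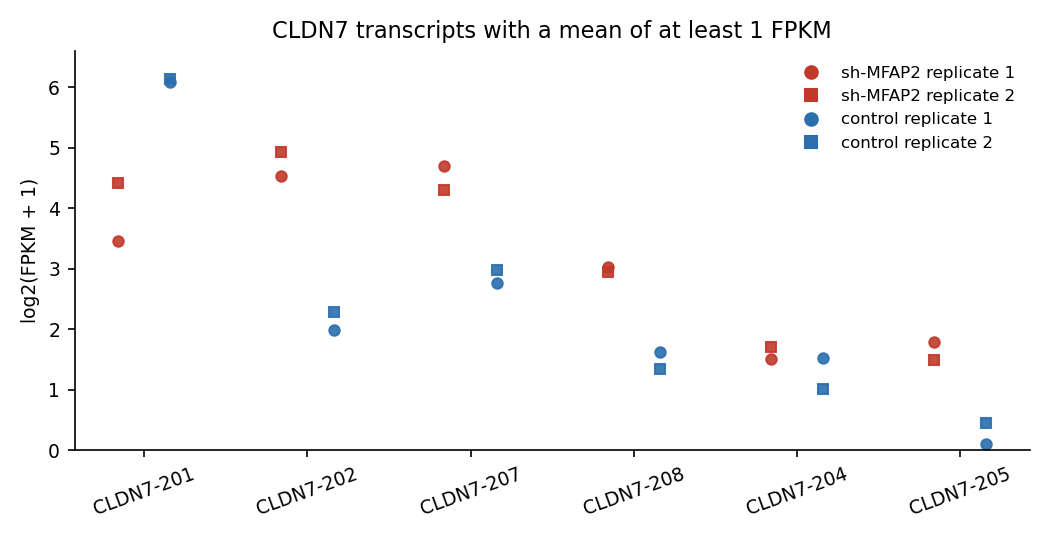
Levels of the 6 CLDN7 transcripts with a mean of at least 1 FPKM, as log2(FPKM + 1) on the vertical axis, with 1 point per library, sh-MFAP2 in red and control in blue. CLDN7-201 lies lower in both sh-MFAP2 libraries, CLDN7-202, CLDN7-207, CLDN7-208 and CLDN7-205 lie higher in both, and the groups overlap only for CLDN7-204.

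Most of the shorter CLDN7 transcripts with a mean of at least 1 FPKM stood on the side of CLDN7-202. CLDN7-207, which begins inside the gene, was at 25.1 and 18.7 FPKM against 5.81 and 6.86 FPKM in the control. CLDN7-208, which starts 13 bases downstream of CLDN7-202, was at 7.15 and 6.73 FPKM against 2.08 and 1.54 FPKM. CLDN7-205, which starts furthest upstream, was at 2.45 and 1.81 FPKM against 0.0807 and 0.367 FPKM. All 3 were higher in both sh-MFAP2 libraries than in both controls, with log2 fold changes of 1.63, 1.503 and 1.36 and unadjusted p of 0.00280, 0.00216 and 0.00842 in limma, and adjusted p of 0.304, 0.282 and 0.429. CLDN7-205, with a control mean of 0.224 FPKM, met the filter of 1 FPKM only through its sh-MFAP2 libraries, and its p-value lends no support. CLDN7-204 overlapped between the groups, at 1.84 and 2.26 FPKM against 1.88 and 1.01 FPKM. CLDN7-206, which starts 9 bases downstream of CLDN7-202, had a mean under 1 FPKM and was not tested. It went the other way, at 0.274 and 0.396 FPKM with sh-MFAP2 against 0.768 and 0.952 FPKM in the control.

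Of the pair formed by CLDN7-201 and CLDN7-202, the upstream start made up 68.9% and 59.1% with sh-MFAP2 and 4.25% and 5.31% in the control. The difference between the transcripts was tested as the log2 ratio of the 2 leading transcripts, a test chosen after the values were seen and applied to the 5162 genes with at least 2 transcripts tested. For CLDN7 the ratio of CLDN7-201 to CLDN7-202 changed by -4.76 on the log2 scale (SE 0.351, 95% interval -5.78 to -3.74), with an unadjusted p of 0.000332, which ranked 9 among these genes. Without sh-MFAP2 replicate 1 the change was -4.48. The adjusted p in limma with Benjamini-Hochberg adjustment was 0.169. No gene passed an adjusted p of 0.05 in this test (0% called), while 296 genes (5.73%) had an unadjusted p under 0.05. The ratios of CLDN2, TJP1 and F11R had unadjusted p of 0.280, 0.427 and 0.663 in limma. An exact permutation test of 2 against 2 libraries cannot go below 0.333, two-sided, and none was run for the CLDN7 pair.

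CLDN7-201 has 4 exons and CLDN7-202 has 5, the added one being an initial exon of 55 bases. Their 633 coding bases lie in the same exons, so both encode the same protein, and they differ in the leader and in the end, which lies 234 bases earlier in CLDN7-202. The transcript values are estimates that share out reads among overlapping transcripts, and the difference between these forms rests on the initial exon, the leader and the end beside the exons they share. A read-through gene on the same strand, RP1-4G17.5, covers CLDN7 from position 7262089 on. Of the CLDN7 starts, only that of CLDN7-207, at 7261145, lies inside it. RP1-4G17.5 shares 269 of the 2492 exonic bases of CLDN7 and was at 1.82 and 2.60 FPKM with sh-MFAP2 against 0.935 and 0.511 FPKM in the control. ELP5, on the opposite strand, shares 38 bases at its end and was at 7.005 to 7.74 FPKM. The part of these neighbours in the CLDN7 values was not tested.

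**Figure D2:**
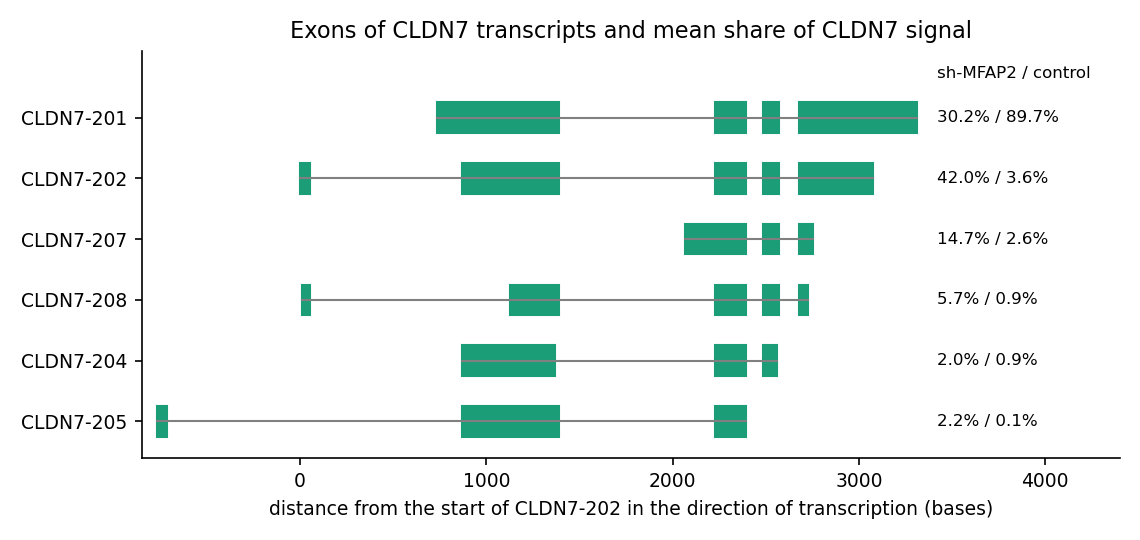
Exons (green boxes) and introns (lines) of the 6 CLDN7 transcripts, drawn to scale by distance in bases from the start of CLDN7-202 in the direction of transcription. The numbers at the right give the mean share of the CLDN7 signal in the 2 sh-MFAP2 libraries and in the 2 controls, 30.2% against 89.7% for CLDN7-201 and 42.0% against 3.6% for CLDN7-202.

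At the level of the whole gene, CLDN7 (ENSG00000181885) was at 26.0 and 34.2 FPKM with sh-MFAP2 against 46.1 and 48.2 FPKM in the control. Means were 30.1 ± 5.78 and 47.2 ± 1.49 FPKM (SD, n = 2 each), and both sh-MFAP2 libraries lay under both controls. In bulk RNA, fewer cells with the transcript and less of it per cell cannot be told apart. The log2 fold change was -0.64 (SE 0.172, 95% interval -1.13 to -0.15), with an unadjusted p of 0.0224 and an adjusted p of 0.371 in limma with Benjamini-Hochberg adjustment over 9873 genes. Summing the transcripts' FPKM in place of the gene value brought it to -0.15, since short transcripts then weigh as much as long ones.

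Among all 10 genes, 7 reached a mean of 1 FPKM and were tested, and none was a DEG by limma, while 27 of 9873 genes were (0.273%). Of the 7, 3 had an unadjusted p under 0.05, CLDN7, TJP1 and F11R, all lower with sh-MFAP2, beside 12.3% of all genes tested. TJP1 was above 0.05 with quantile normalization, median of ratios and a replicate block (unadjusted p of 0.0560, 0.0529 and 0.0733 in limma), and on summed transcripts p was 0.298 for CLDN7 and 0.225 for TJP1. Without control replicate 1 only F11R remained under 0.05, and without control replicate 2 none did. Both sh-MFAP2 libraries lay under both controls for CLDN7, OCLN, TJP1 and F11R, 4 of 7 beside 31.4% of all genes, and above both for CLDN1, 1 of 7 beside 17.5%. The median log2 fold change of the 7 was -0.15 and that of all genes tested -0.05.

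**Figure D3:**
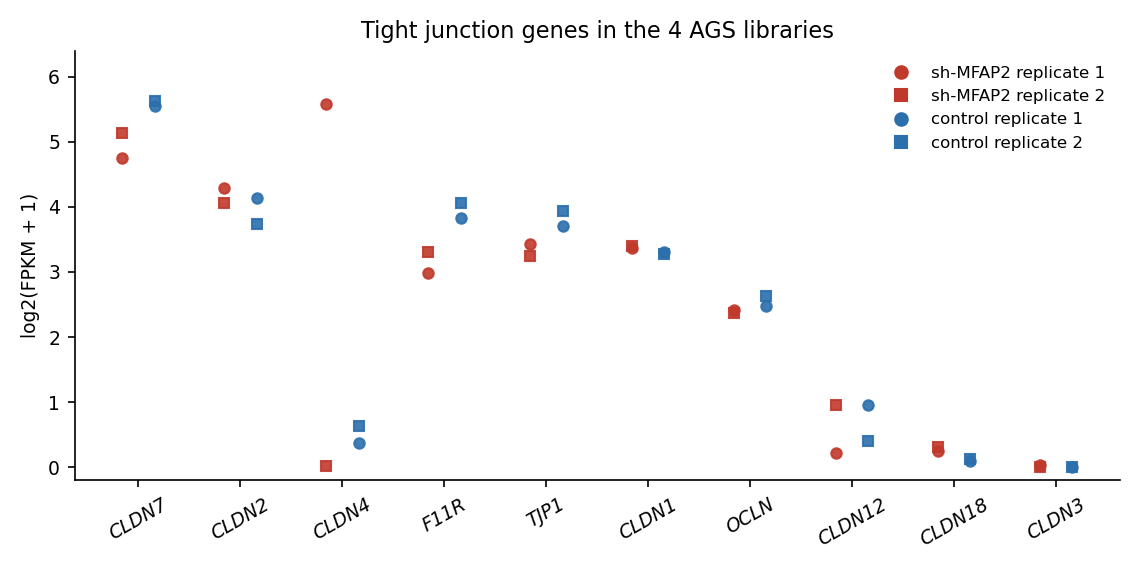
Gene levels of the 10 tight junction genes as log2(FPKM + 1), ordered by mean FPKM, with 1 point per library, sh-MFAP2 in red and control in blue. CLDN7, F11R, TJP1 and OCLN are lower in both sh-MFAP2 libraries, and CLDN4 is high in sh-MFAP2 replicate 1 alone, at 47.1 FPKM.

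F11R, at chr1:160995211-161021348, encodes JAM-A, an immunoglobulin-like adhesion molecule of the junction, and had the most negative gene-level change of the 7. It was at 6.92 and 8.85 FPKM with sh-MFAP2 against 13.2 and 15.8 FPKM in the control, with no overlap. Its log2 fold change was -0.81 (SE 0.173, 95% interval -1.30 to -0.31), with an unadjusted p of 0.0110 and an adjusted p of 0.332 in limma, and summing its transcripts gave -1.14. The long transcript F11R-202 carried 71.4% to 93.9% of the signal, at 6.49 and 8.59 FPKM against 9.90 and 15.5 FPKM. F11R-204 was at 2.68 and 2.14 FPKM against 12.0 and 3.06 FPKM and F11R-201 at 0.468 and 0.818 FPKM against 7.19 and 1.76 FPKM. All 3 forms were lower in both sh-MFAP2 libraries, and the 2 shorter ones varied several-fold between the controls.

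TJP1, at chr15:29699367-29968865, encodes the scaffold protein ZO-1 that links claudins and occludin to actin. It was at 9.76 and 8.53 FPKM with sh-MFAP2 against 12.1 and 14.3 FPKM in the control, again without overlap. The log2 fold change was -0.48 (SE 0.141, 95% interval -0.88 to -0.08), with an unadjusted p of 0.0298 and an adjusted p of 0.394 in limma. Of its 5 transcripts tested, 4 overlapped between the groups, and the leading one, TJP1-209, was at 9.08 and 11.8 FPKM against 6.20 and 19.8 FPKM, so the spread between the controls was wider than the difference. TJP1-203, a short form of 1032 bases from the end of the gene, was higher, at 8.22 and 7.40 FPKM against 4.85 and 7.30 FPKM (unadjusted p of 0.257 in limma). Summing the transcripts gave the gene -0.28.

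OCLN, at chr5:69492292-69558104, encodes occludin. Its levels were 4.36 and 4.20 FPKM with sh-MFAP2 and 4.55 and 5.19 FPKM in the control, so the groups did not overlap, but the log2 fold change was only -0.15 (SE 0.113, 95% interval -0.47 to 0.17) with an adjusted p of 0.590 in limma. OCLN has 5 listed transcripts. Of these, OCLN-201 and OCLN-202 start 498 bases apart and have the same 1566 coding bases. They also end apart, at 69558104 and 69553671, and are 6438 and 1748 bases long. Whether their shares rest on the start or the end was not tested. The downstream form OCLN-202 held 58.6% and 89.6% of the signal with sh-MFAP2 and 84.6% and 84.3% in the control. Only sh-MFAP2 replicate 1 stood apart there, with 40.9% in OCLN-201, which held 10.2% to 14.8% in the other libraries.

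**Figure D4:**
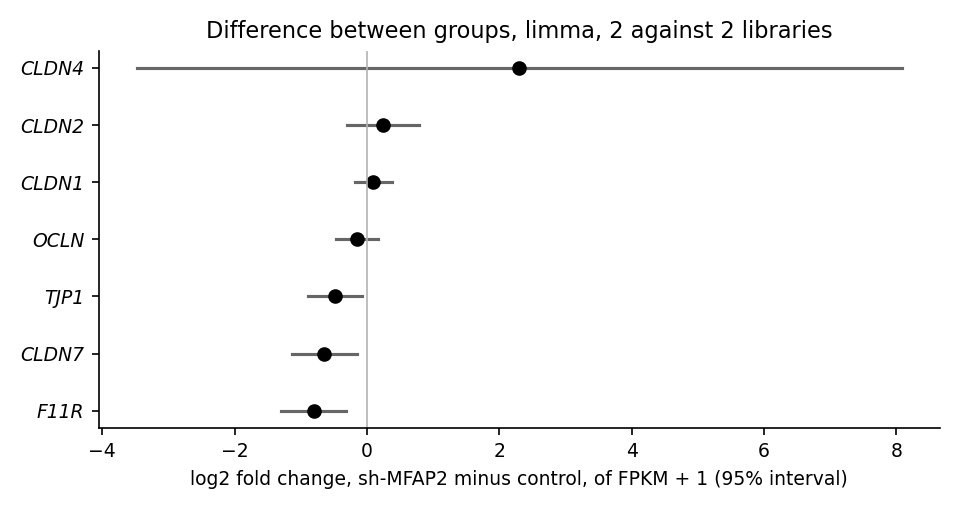
Log2 fold change of FPKM + 1, sh-MFAP2 minus control, for the 7 genes tested, with points at the limma estimate and lines for the 95% interval. The intervals of F11R, CLDN7 and TJP1 lie below 0, no gene passed after adjustment, and that of CLDN4 runs from -3.47 to 8.08.

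CLDN1, at chr3:190305701-190322475, encodes a barrier-forming claudin and was the steadiest of the group. It was at 9.33 and 9.60 FPKM with sh-MFAP2 against 8.94 and 8.67 FPKM in the control, with 99.8% or more of the signal in 1 transcript, CLDN1-201. The sh-MFAP2 libraries lay slightly above the controls, by 0.09 on the log2 scale (SE 0.0988, 95% interval -0.19 to 0.37, adjusted p of 0.691 in limma).

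CLDN2, at chrX:106900164-106930861, encodes a claudin that forms pores for cations. At gene level it overlapped between the groups, at 18.6 and 15.8 FPKM with sh-MFAP2 and 16.6 and 12.4 FPKM in the control, with a log2 fold change of 0.24 (SE 0.192, 95% interval -0.30 to 0.79, adjusted p of 0.610 in limma). Its start differed in a single library. CLDN2-203, the most upstream form, was at 16.7 FPKM in sh-MFAP2 replicate 1 and listed at 0 in the other 3 libraries. CLDN2-202, which starts 18196 bases downstream, was at 3.68 FPKM in that library and at 18.4, 19.3 and 14.4 FPKM in sh-MFAP2 replicate 2 and the controls. The upstream form thus held 82.9% of the CLDN2 signal in sh-MFAP2 replicate 1, and the downstream form over 99.7% in each of the others, with the same 690 coding bases in both. The windows of these 2 starts, from RefSeq GRCh38.p14 on the plus strand and of the same extent as those of CLDN7, are shown for comparison with CLDN7, and any E-box would be in capitals.
CLDN2-203 start, chrX:106900014-106900183: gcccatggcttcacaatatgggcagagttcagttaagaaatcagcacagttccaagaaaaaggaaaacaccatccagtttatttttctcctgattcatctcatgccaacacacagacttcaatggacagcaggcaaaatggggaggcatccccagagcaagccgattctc
CLDN2-202 start, chrX:106918210-106918379: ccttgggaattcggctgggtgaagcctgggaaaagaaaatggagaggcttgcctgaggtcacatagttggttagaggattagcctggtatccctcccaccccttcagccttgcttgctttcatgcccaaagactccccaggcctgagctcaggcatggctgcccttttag
Neither window held the E-box or the GC box given above on either strand, and each had 1 CG pair. RIPPLY1, on the opposite strand, covers all 341 bases of the first exon of CLDN2-203 and was at no more than 0.0998 FPKM in any library. MORC4 spans CLDN2 on the opposite strand but shares none of its 3410 exonic bases. Whether counting used strand is not given in the sources used here.

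CLDN4, at chr7:73799542-73832693, encodes a barrier-forming claudin. It was at 47.1 FPKM in sh-MFAP2 replicate 1 and at 0.0151 FPKM in sh-MFAP2 replicate 2, with 0.291 and 0.551 FPKM in the controls. In reads implied by the steps these were about 13465, 3.87, 80.9 and 193. The highest and the lowest CLDN4 value thus came from the same group. Its log2 fold change of 2.30 (SE 2.03, 95% interval -3.47 to 8.08, adjusted p of 0.635 in limma) rested on that library and was -0.48 without it. CLDN4-201, which has a single exon, carried all of the signal in sh-MFAP2 replicate 1, at 121 FPKM, and was at 0.00304, 0.696 and 1.21 FPKM in the others. Of the 7 genes tested, CLDN4 was the only one near 0 in some libraries and above 5 FPKM in another, where near 0 means under 10% of the highest library, and 203 of 9873 genes (2.06%) were so listed.

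CLDN12, CLDN18 and CLDN3 had means under 1 FPKM and were not tested. CLDN12, at chr7:90383721-90513402, encodes a widely expressed claudin and was at 0.161 and 0.931 FPKM with sh-MFAP2 and 0.930 and 0.316 FPKM in the control, so it varied more within the groups than between them. CLDN18, at chr3:137998735-138033655, encodes a claudin whose forms begin at different first exons. It was at 0.186 and 0.241 FPKM with sh-MFAP2 against 0.0706 and 0.0897 FPKM in the control, which correspond to about 43.9, 50.9, 16.2 and 26.0 reads. These low values did not overlap between the groups. All of the CLDN18 signal was assigned to CLDN18-201, which begins at the downstream first exon, and CLDN18-202, which begins at the upstream one, was listed at 0 in all 4 libraries. CLDN3, a single-exon gene at chr7:73768997-73770270 that encodes a barrier-forming claudin, was at 0.0258 FPKM in sh-MFAP2 replicate 1, about 2 reads, and listed at 0 in the other 3.

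By mean FPKM over the 4 libraries, the order of the claudins and partners was CLDN7 (38.6), CLDN2 (15.8), CLDN4 (12.0), F11R (11.2), TJP1 (11.2), CLDN1 (9.14), OCLN (4.57), CLDN12 (0.584), CLDN18 (0.147) and CLDN3 (0.00646). The ranges over libraries overlapped between CLDN2 and CLDN4, CLDN4 and F11R, F11R and TJP1, TJP1 and CLDN1, and CLDN12 and CLDN18, and these neighbours were not separated beyond their spread. The place of CLDN4 came from sh-MFAP2 replicate 1, where it lay above CLDN7. Over the other 3 libraries its mean was 0.286 FPKM, between CLDN12 (0.726) and CLDN18 (0.134), and the order of the rest was the same. CLDN6, a claudin of embryonic epithelia that is not among the 10, ranked between CLDN7 and CLDN2, at 20.9 and 18.9 FPKM with sh-MFAP2 and 21.4 and 21.3 FPKM in the control (log2 fold change -0.10, SE 0.110, adjusted p of 0.703 in limma).

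Across all 24 claudin genes of the table, 5 had a mean of at least 1 FPKM, CLDN7, CLDN6, CLDN2, CLDN4 and CLDN1, and together they held 97.3% to 98.7% of the summed claudin FPKM. Of the remaining 19, all under 1 FPKM in every library, 6 were listed at 0 in all 4. The sum was 124 and 80.7 FPKM with sh-MFAP2 and 95.2 and 92.9 FPKM in the control. CLDN4 alone made up 38.1% in sh-MFAP2 replicate 1 and 0.0187%, 0.306% and 0.593% elsewhere. Without CLDN4, an alternative added after the data were seen, the sums were 76.5 and 80.7 FPKM against 94.9 and 92.4 FPKM, lower in both sh-MFAP2 libraries. CLDN7 held 21.1% and 42.4% of the full sum with sh-MFAP2 and 48.5% and 51.9% in the control, and 34.0% and 42.4% against 48.6% and 52.2% without CLDN4. The mean share of the full sum was 31.7% with sh-MFAP2 and 50.2% in the control. With transcripts' FPKM summed in place of gene values, these means were 42.8% and 58.3%.

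**Figure D5:**
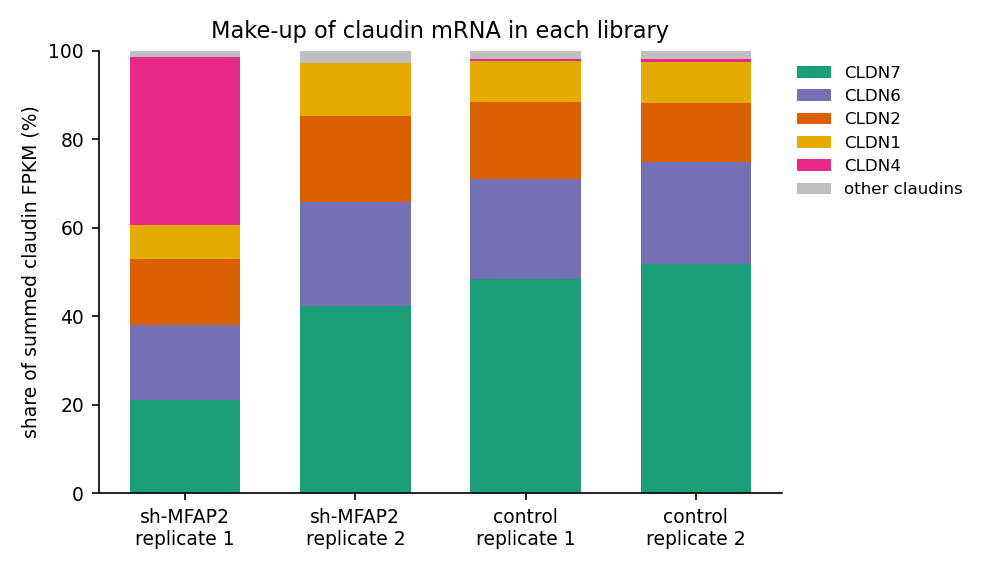
Share of each claudin in the summed claudin FPKM of each library, in percent, with the 5 leading claudins in colour and the other 19 in grey. By gene values, CLDN7 holds 48.5% and 51.9% of the sum in the controls and less in both sh-MFAP2 libraries, and CLDN4 holds 38.1% in sh-MFAP2 replicate 1 only.

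The wider set of tight junction genes, 54 beside the 10, was described in 4 groups, and 27 of them reached a mean of 1 FPKM. None was a DEG by limma (0.273% of all genes were), 1 had an unadjusted p under 0.05 (12.3% of all genes), and 17 had a negative and 10 a positive log2 fold change, beside 5722 and 4151 of all 9873 genes. Both sh-MFAP2 libraries lay under both controls for 7 of the 27 and above both for 3, beside 31.4% and 17.5% of all genes, and the median log2 fold change was -0.04.

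The 11 plaque and scaffold proteins tested had a median log2 fold change of -0.17. In both sh-MFAP2 libraries 4 of the 11 lay under both controls, beside 31.4% of all genes. MAGI1, a scaffold with PDZ domains, was at 1.72 and 1.696 FPKM against 2.14 and 2.69 FPKM in the control (log2 fold change -0.33, unadjusted p of 0.0657 in limma). PATJ, a scaffold of the Crumbs complex, was at 3.89 and 3.96 FPKM against 4.55 and 4.62 FPKM (-0.18, p of 0.138 in limma), and AMOTL2, an angiomotin family protein, at 5.37 and 4.81 FPKM against 5.55 and 6.26 FPKM (-0.18, p of 0.211 in limma). TJP3, which encodes ZO-3, a relative of ZO-1, overlapped between the groups, at 5.76 and 5.40 FPKM against 5.58 and 5.54 FPKM. The difference between TJP1 and TJP3 was not tested.

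Of the 9 polarity and traffic genes, PRKCI was the gene under 0.05. It encodes the atypical protein kinase C iota of the PAR complex and was at 17.6 and 21.0 FPKM with sh-MFAP2 and 26.6 and 26.2 FPKM in the control (log2 fold change -0.44, SE 0.131, unadjusted p of 0.0313, adjusted p of 0.394 in limma). PARD3, which encodes the PAR complex scaffold, was at 12.3 and 11.5 FPKM against 12.9 and 13.0 FPKM (-0.12, p of 0.313 in limma). PARD6B, which encodes another subunit, stood on the other side, at 4.89 and 5.57 FPKM against 4.36 and 3.73 FPKM (0.30, p of 0.0818 in limma), and ARHGEF2, a guanine nucleotide exchange factor found at junctions, was at 3.06 and 3.34 against 2.997 and 2.98 FPKM (0.07, p of 0.519 in limma). In this group 2 of 9 genes lay under both controls and 2 above both, beside 31.4% and 17.5% of all genes.

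The 6 other membrane proteins tested had a median log2 fold change of -0.01. MARVELD2, which encodes tricellulin at the corners where 3 cells meet, was above both controls, at 4.36 and 4.20 FPKM against 4.12 and 3.91 FPKM (log2 fold change 0.07, p of 0.497 in limma). The other 5 overlapped between the groups, among them EPCAM, a known binding partner of claudin-7 (log2 fold change -0.03, SE 0.113), and LSR, the angulin that recruits tricellulin, at 154 and 120 FPKM against 129 and 129 FPKM.

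Over the 59 transcripts listed for the 10 genes, 19 had a mean of at least 1 FPKM and none was a DEG by limma, as was true of all 22312 transcripts tested (0%), of which 1704 (7.64%) had an unadjusted p under 0.05. Of the 19, 5 had an unadjusted p under 0.05, and all 5 were the transcripts of CLDN7 described above, 1 lower and 4 higher. Both sh-MFAP2 libraries lay under both controls for 5 of the 19 and above both for 6, beside 24.9% and 17.8% of all transcripts. Transcripts of 1 gene share reads and are not independent of each other.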

How the data were processed

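RNA sequencing of AGS cells gave 1 table of gene values and 1 of transcript values, both deposited by the authors with non-whole values whose unit was taken as FPKM from the values themselves. The submitters' processing notes name build hg38, and the aligner and the estimating program are not given in the sources used here. For each gene, FPKM times length summed over transcripts and divided by the exonic bases gives the gene value, so 1 transcript's FPKM can exceed that of its gene. Genes and transcripts with a mean of at least 1 FPKM were tested on log2(FPKM + 1) with limma 3.58.1 (R 4.3.3, variance trend, Benjamini-Hochberg adjustment), in place of the study's random variance model, with DEGs at p under 0.01 and adjusted p under 0.05. Fold changes on this scale understate those of low genes. The transcript ratio was fitted without a trend. On simulated data the gene fit called 133 of 200 genes shifted by 2 (log2) with 1 unchanged gene of 9873 tested, and the ratio fit 67 of 200 ratios shifted by 4 with 2 unchanged ones of 5162. A test of all transcripts of a gene with pooled variance (limma's diffSplice) was not used. With 1 transcript of each of 200 genes shifted by 2 (log2), 41 of its 100 simulated calls were unchanged genes. That simulation drew transcripts independently and gave each its own variance, unlike the pooled model. Its shift also differed from that of the ratio fit, so it cannot rank the 2 tests.

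The 10 genes and all lists were chosen with earlier results of these data known. All 10, every DEG of the wider list, and up to 3 rises and 3 falls per group of genes whose groups did not overlap are named. Positions come from GENCODE 29, which held 92.5% of the gene identifiers, and windows from RefSeq GRCh38.p14. Python 3.11.15 with pandas 2.3.3, numpy 2.4.6 and matplotlib 3.10.9 served for tables and figures. Depth was inferred from steps between low values, of which 61.1% to 62.1% lay on whole reads, too few to recover counts, and no count test was used. Alternatives changed the filter, pseudocount, scaling, trend, block and libraries.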

Additional observations from a re-analysis of the deposited data

How the results depend on the processing

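No alternative made a DEG of any of the 10 genes, of the other tight junction genes or of the members' transcripts. Of the values behind the main counts, 58 stayed close and 13 moved. The 58 include every DEG count, all at 0, also with a replicate block, where 0 of all 9873 genes were DEGs. They are therefore no measure of stability. All 13 that moved were medians or counts at unadjusted p under 0.05. The median log2 fold change of the 7 genes, -0.15, was -0.0357 with every gene above 0 kept (10 genes) and -0.0633 with quantile normalization, and -0.453 to -0.0722 with 1 library left out. The count of genes with unadjusted p under 0.05, 3 in the main fit, was 4 with every gene above 0 kept. It was 2 with quantile normalization, median of ratios or a replicate block. With 1 library left out, neither the count nor the genes behind it stayed the same throughout. In the wider list the 1 such gene became 2 with quantile normalization, 2 with median of ratios, 0 with a replicate block and 0 to 4 with 1 library left out. Scaling took the median of all genes from -0.0525 to -8.72e-05 with quantile normalization and to 0.00556 with median of ratios. With median of ratios the median of the 7 genes was -0.0921. The shares of all genes printed beside the counts come from unscaled values.

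Without sh-MFAP2 replicate 1 the sign turned for CLDN4 to -0.48, CLDN4-201 (ENST00000340958) to -0.948, CLDN2-202 (ENST00000540876) to 0.130 and TJP1-209 (ENST00000545208) to 0.0609, and the last also turned, to 0.656, without control replicate 2. With each library left out in turn they ran from -0.48 to 5.09, -0.948 to 5.98, -1.92 to 0.130 and -0.873 to 0.656. The CLDN7 transcript ratio stayed between -5.05 and -4.48 with 1 library left out, and its adjusted p in limma was 0.169 to 0.765 over all settings, the highest with a replicate block. Same-numbered libraries did not deviate together (correlation -0.0572), which cannot show whether they were handled in pairs. The block left 0 DEGs among all genes in place of 27. With 1 library left out the lone library of a group is assumed to vary like the others, and 0 genes were DEGs. With 2 libraries a group and inferred depth, differences under the stated intervals cannot be seen.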
